A study of Mus musculus with 4 samples.

Results

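The heterochronic genes Lin28a, Lin28b, Trim71, Hmga1, Hmga2, Igf2bp1, Igf2bp2 and Igf2bp3 were followed in mouse retinal organoids at day 6, grown with or without Dox. They were taken from the deposited gene table by symbol, and all 8 were found once each among its 55426 rows. All libraries came from a line labelled Rx:GFP Mettl3 KO, which carries a Dox-inducible HA-METTL3. The METTL3 protein carries the catalytic activity of the complex that deposits N6-methyladenosine on RNA. The untreated group (2 libraries) and the Dox group (2 libraries, 2 µg/ml for 6 days) shared this genotype and the same medium, GMEM with 5% KSR, NEAA, β-ME, sodium pyruvate and AGN at 0.1 µM. Poly(A) RNA was sequenced in pairs. The titles use EV and EV+Dox, and EV is not explained in the labels. In addition, the sources used here do not say whether the line is 1 clone or whether replicates were separate cultures. The p-values below therefore measure only the spread between these libraries, which may be technical.

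Heterochronic genes set the timing of developmental programmes and were first defined in the nematode. LIN28A and LIN28B bind precursors of the let-7 microRNA and block their maturation, while mature let-7 represses the mRNAs of both LIN28 genes, so that each side keeps the other in check. TRIM71, HMGA1, HMGA2 and the IGF2BP proteins are other products of the early programme whose mRNAs are known let-7 targets. In neural tissue the levels of some of them are known to fall as let-7 accumulates.

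The let-7 microRNAs are shown first, because each of the 8 mRNAs holds letters that pair with their seed (bases 2 to 8, in capitals). The RefSeq table (GRCm38.p6) gives a mature sequence of this arm for 13 genes of the family, and 12 of them share the same seed. The exception is let-7j, whose last seed base differs. The mature strands below show how far the family varies outside the seed. RefSeq places let-7a at chr13:48538239-48538260 (minus strand), let-7g at chr9:106178846-106178867 (plus strand), miR-98 at chrX:151913229-151913250 (plus strand) and let-7j at chr3:140028281-140028304 (plus strand).
mmu-let-7a-5p: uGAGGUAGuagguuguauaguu
mmu-let-7g-5p: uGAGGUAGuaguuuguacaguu
mmu-miR-98-5p: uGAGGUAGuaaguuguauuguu
mmu-let-7j: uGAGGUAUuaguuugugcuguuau

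LIN28 proteins recognise the letters GGAG in the loop of the let-7 precursor. Of the 11 hairpins in the table with both arms given, 8 hold GGAG between the arms, and the let-7b, let-7c-2 and miR-98 hairpins do not. The pair below shows the contrast, with GGAG in capitals where it occurs. Mirlet7g lies at chr9:106178840-106178927 and Mirlet7b at chr15:85707319-85707403, both on the plus strand.
Mirlet7g: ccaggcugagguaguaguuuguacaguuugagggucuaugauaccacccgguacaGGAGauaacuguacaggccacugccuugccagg
Mirlet7b: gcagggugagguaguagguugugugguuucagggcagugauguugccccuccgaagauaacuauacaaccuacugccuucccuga

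The letters that pair with the shared seed, CTACCTC in DNA letters on the mRNA strand, were searched for in the longest annotated 3′ UTR of every protein-coding gene of GENCODE M21 (GRCm38, the assembly also called mm10). All 8 mRNAs held at least 1 match. Among 21027 genes with a 3′ UTR, 9.02% held at least 1 match and 1.07% at least 2. Lin28b, Trim71, Hmga2 and Igf2bp1 had 4 matches each, a number reached by 12 genes of the 21027, themselves included, or 0.0571%. Lin28a had 2 matches, and Hmga1, Igf2bp2 and Igf2bp3 had 1 each. Long UTRs hold more matches by length alone. Of the 3033 genes whose 3′ UTR was within 25% of the 2775 bases of Lin28a, 1.95% held at least 2 matches, and of the 3583 genes near the 1784 bases of Igf2bp2, 11.5% held at least 1. The 8 genes are known let-7 targets, so their matches are not independent of the choice of genes. A match is a run of letters and not a measured site.

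The matches of the 2 genes that rose with Dox (Lin28a and Igf2bp2), of the gene next in line (Trim71, first match) and of the gene with the opposite sign (Igf2bp3) are given below, each with the 22 bases before it and the base after it, the match in capitals. All 5 are followed by an A, the letter that makes the longest form of a seed site. The 30-base windows lie on the minus strand at chr4:134005189-134005218 and chr4:134004551-134004580 (Lin28a), chr16:22059473-22059502 (Igf2bp2), chr9:114512472-114512501 (Trim71) and chr6:49086787-49086816 (Igf2bp3).
Lin28a site 1: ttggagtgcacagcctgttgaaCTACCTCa
Lin28a site 2: atgctttgagatcgccacaaacCTACCTCa
Igf2bp2 site 1: gagaaaaacacacaaataaaagCTACCTCa
Trim71 site 1: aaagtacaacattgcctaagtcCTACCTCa
Igf2bp3 site 1: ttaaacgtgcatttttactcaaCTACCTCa

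**Figure D1:**
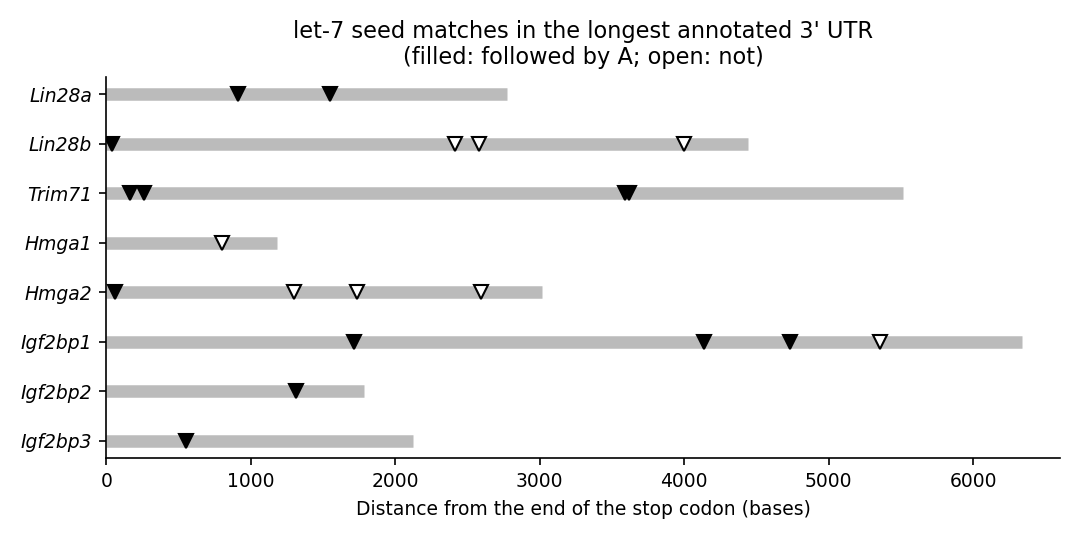
Positions of the letters CTACCTC in the longest annotated 3′ UTR of each of the 8 genes, with the distance from the end of the stop codon in bases on the horizontal axis. Grey bars give the UTR length, filled triangles mark matches followed by A and open triangles the others. Lin28b, Trim71, Hmga2 and Igf2bp1 have 4 matches each, and the UTRs range from 1183 bases (Hmga1) to 6337 bases (Igf2bp1).

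Expression was deposited as FPKM, which divides fragments by transcript length and by library size, so levels of different genes may be set side by side. The depth fitted from the steps of low values was 31700000 to 34900000 fragments per library. The fewest fragments behind any value of the 8 genes were about 4340, for Trim71, a counting error of 1.52%. Mettl3, the targeted gene, stood at 40.33 and 37.98 FPKM untreated and 45.2 and 46.37 FPKM with Dox, and this difference did not pass the test (log2 fold change 0.22, adjusted p = 0.122 in limma). Which part of Mettl3 is deleted, and whether reads of the transgene fall in this row, is not given in the sources used here, so the row does not check the labels. The retinal marker list summed to 452.21 to 482.21 FPKM untreated and to 1168.31 to 1335.38 FPKM with Dox, and Rax and Six6 were at or below 1.12 FPKM in both untreated libraries. Of its 10 genes 8 were higher and 1 was lower, Otx2 at 173.12 and 172.52 FPKM untreated and 137.05 and 131.35 FPKM with Dox (adjusted p = 0.0254 in limma). Pax6 did not pass (log2 fold change 0.04, adjusted p = 0.796 in limma). Summed neuron markers fell from 150.22 to 153.5 FPKM untreated to 83.37 to 87.34 FPKM with Dox, and dorsal forebrain and midline markers from 331.37 to 331.6 to 47.57 to 52.69 FPKM. Neural crest markers summed to 33.29 to 34.71 FPKM untreated and 7.9 to 9.57 FPKM with Dox, and pigment epithelium markers to 2.37 to 2.46 and 61.34 to 61.87 FPKM. Of the tested genes, 6 of 6 neuron and 6 of 7 dorsal forebrain and midline markers were lower. Tubb3 made up most of the neuron sum, at 118.53 and 116.78 FPKM untreated and 75.76 and 79.83 FPKM with Dox. In the neuron list Dcx, Snap25, Isl1 and Pou4f2 were too low to test. Dcx and Snap25 were lower with Dox, while Isl1 and Pou4f2 overlapped between groups. Isl1 stood at 0.85 and 0.9 FPKM untreated and 0.88 and 1.07 FPKM with Dox. All 3 tested pigment markers were higher, while Tyr, Tyrp1 and Mlana were too low to test (at most 0.64 FPKM). Of 6 neural crest genes 4 were lower, while Snai2 and Tfap2a did not pass and had positive log2 fold changes (0.45 and 0.14). Over all tested genes 9.31% were called. The groups thus differed in cell type markers as well as in Dox, and the part of these markers in any result below was not tested. In such bulk samples fewer cells of a type and less RNA per cell cannot be told apart.

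All 8 genes were expressed in every library and all 8 passed the filter on low values (a mean of at least 1 FPKM), so none was lost before testing. In the untreated libraries Hmga1 was by far the highest at 307.9 ± 35.4 FPKM (SD, n = 2). It was followed by Igf2bp3 at 63.8 ± 3.67, Lin28a at 61.3 ± 5.10, Hmga2 at 54.4 ± 1.54 and Igf2bp2 at 54.03 ± 5.19 FPKM. Igf2bp1 at 33.9 ± 1.46, Lin28b at 32.4 ± 0.290 and Trim71 at 14.0 ± 0.919 FPKM came last. The ranges of Igf2bp3 and Lin28a overlapped, as did those of Hmga2 and Igf2bp2, so these neighbours cannot be ranked. With Dox the order below Hmga1 (348.8 ± 6.14 FPKM) became Lin28a at 100.95 ± 2.88, Igf2bp2 at 80.6 ± 7.18, Hmga2 at 59.4 ± 1.31 and Igf2bp3 at 52.4 ± 1.67 FPKM. Igf2bp1 at 42.1 ± 6.56 FPKM and Lin28b at 38.65 ± 0.212 FPKM overlapped, and Trim71 at 19.5 ± 1.83 FPKM stayed lowest. Igf2bp3 thus moved from rank 2 to rank 5 and Igf2bp2 from rank 5 to rank 3, although ranks next to each other overlapped as given.

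**Figure D2:**
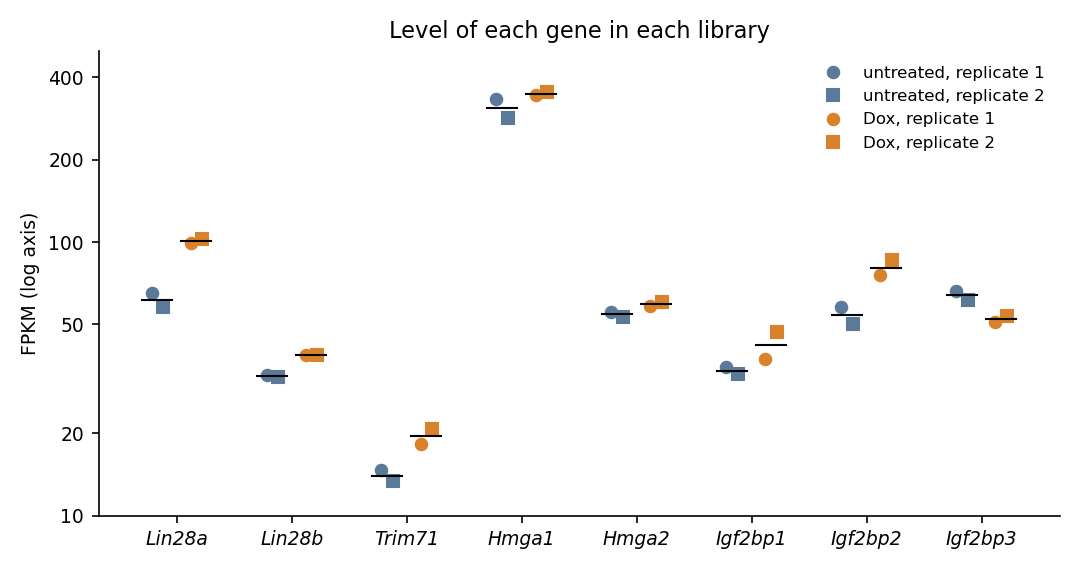
FPKM of the 8 genes on a log axis in each of the 4 libraries, with blue for untreated and orange for Dox, circles for replicate 1, squares for replicate 2 and black bars for group means. Lin28a lies at 57.7 and 64.91 FPKM untreated and at 98.91 and 102.99 FPKM with Dox, and Igf2bp3 is the only gene whose Dox libraries lie below its untreated ones.

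The comparison of Dox with no Dox asks how the inducible METTL3 line differs during early retinal differentiation. Of the 8 genes, 2 rose with Dox at an adjusted p below 0.05 in limma, 0 fell and 6 did not pass. Over all 13931 tested genes the same rule called 9.31% (4.44% higher, 4.87% lower). At an unadjusted p below 0.05, 5 of the 8 were higher and 1 lower, where 12% and 11.9% of all tested genes were. The median log2 fold change of the 8 was 0.27, against -0.0042 over all tested genes, and 7 of the 8 values were positive, where 49.2% of all tested genes were. For each of the 8 genes the untreated and Dox values were separate, 7 with Dox higher and 1 with Dox lower. Among all tested genes 53.4% did not overlap, 26.5% with Dox higher. The 8 genes were chosen with earlier results of these data known, so these shares are not independent of the data. For a single gene, 2 libraries against 2 allow no exact two-sided permutation p below 0.333, and all 8 genes stood at that value.

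Lin28a (ENSMUSG00000050966, chr4:134003330-134018841, minus strand), which blocks let-7 maturation and marks early embryonic cells, had the largest change. It stood at 64.91 and 57.7 FPKM untreated and at 98.91 and 102.99 FPKM with Dox. Both Dox libraries were well above both untreated ones, 1.65-fold in the means. The log2 fold change was 0.71 (SE 0.0803, 95% interval 0.51 to 0.91, adjusted p = 0.00522 in limma). The call was lost when Dox replicate 2 was left out (adjusted p = 0.0628 in limma), although the log2 fold change was then 0.68. Lin28a is also a pluripotency marker. Of 9 tested pluripotency markers, 0 were higher and 1 (Klf4) lower, a share near the 9.31% of all tested genes that were called. Their list of 10 summed to 73.73 to 77.38 FPKM untreated and 58.12 to 84.61 FPKM with Dox, overlapping ranges, and no marker of the list was at 0 in all libraries. Of the 9 tested, 4 had positive log2 fold changes, the largest for Utf1 (0.64, adjusted p = 0.124 in limma). Utf1 was at 2.85 and 3.2 FPKM untreated and 6.55 and 4.17 FPKM with Dox. The part of pluripotent cells in the change of Lin28a was not tested.

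Lin28b (ENSMUSG00000063804, chr10:45376620-45486395, minus strand), the paralog with the same role, stood at 32.62 and 32.21 FPKM untreated and at 38.5 and 38.8 FPKM with Dox. Its replicates were the closest of the 8 genes and its groups did not overlap. The log2 fold change of 0.25 (95% interval 0.087 to 0.41) did not pass the test (adjusted p = 0.0800 in limma). The ratio of Lin28a to Lin28b within a library was 1.99 and 1.79 untreated and 2.57 and 2.65 with Dox.

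Trim71 (ENSMUSG00000079259, chr9:114507133-114564369, minus strand), the vertebrate counterpart of the nematode lin-41 and an RNA-binding ubiquitin ligase, stood just outside the threshold. Its values were 14.64 and 13.34 FPKM untreated and 18.22 and 20.81 FPKM with Dox. The log2 fold change was 0.45 (95% interval 0.20 to 0.70, adjusted p = 0.0508 in limma). It passed with quantile normalization (adjusted p = 0.0419 in limma), with a pseudocount of 0.1 (0.0492) and with a filter of 5 FPKM (0.0494). In none of the other alternative settings tried did Trim71 pass.

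The Hmga genes encode AT-hook proteins that bind the minor groove of DNA and loosen chromatin, and Hmga2 sustains the self-renewal of neural stem cells. Hmga1 (ENSMUSG00000046711, chr17:27556497-27563674, plus strand) was listed at 332.93 and 282.86 FPKM untreated and at 344.42 and 353.11 FPKM with Dox. Its untreated replicates lay further apart than its group means did. Hmga2 (ENSMUSG00000056758, chr10:120361275-120476469, minus strand) was at 55.49 and 53.31 FPKM untreated and at 58.51 and 60.36 FPKM with Dox. The log2 fold changes were 0.18 for Hmga1 (95% interval -0.062 to 0.43) and 0.13 for Hmga2 (-0.036 to 0.29), neither past the test (adjusted p = 0.333 and 0.316 in limma). The value of Hmga1 was 0.30 without untreated replicate 1 and 0.067 without untreated replicate 2. The intervals of both genes leave room for no change and for increases up to their upper bounds. The ratio of Hmga1 to Hmga2 was 5.31 to 6.00 untreated and 5.85 to 5.89 with Dox, so the ranges overlapped. The table also lists Hmga1b, a near-copy: 92.7% of the 31-base words of its longest transcript occur in Hmga1 transcripts. Reads could be split between the 2 rows, so the value of Hmga1 is uncertain. Hmga1b stood at 226.26 and 210.03 FPKM untreated and 260.87 and 267.86 FPKM with Dox (log2 fold change 0.28, adjusted p = 0.0836 in limma).

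**Figure D3:**
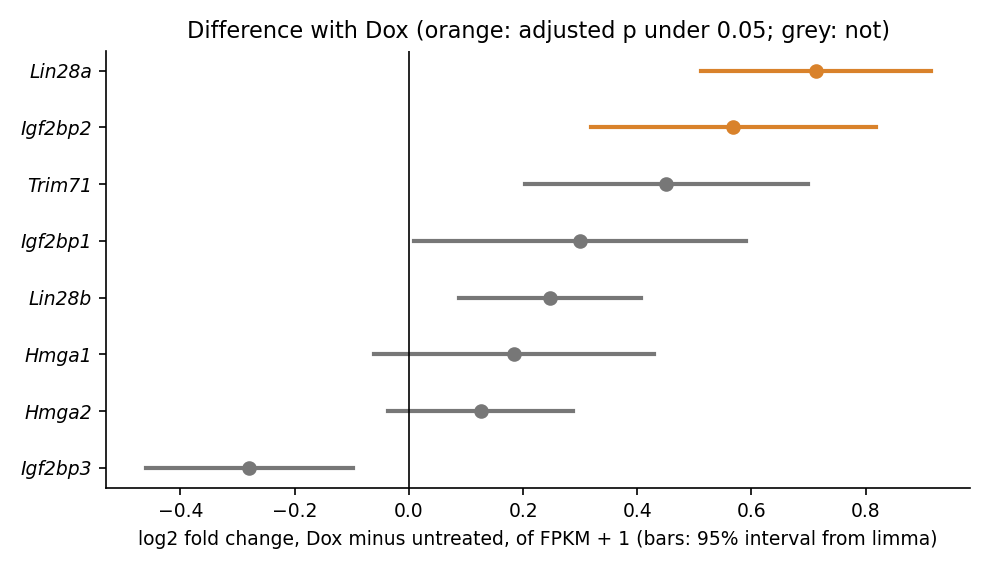
Log2 fold change (Dox minus untreated, on log2 of FPKM + 1) of the 8 genes with its 95% interval from limma, in order of size. Orange marks the 2 genes past an adjusted p of 0.05, Lin28a (0.71) and Igf2bp2 (0.57), and Igf2bp3 (-0.28) is the only one with a negative value.

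The IGF2BP proteins bind mRNAs, among them that of Igf2, and keep them stable. They are also described as readers of N6-methyladenosine. Igf2bp2 (ENSMUSG00000033581, chr16:22059009-22163299, minus strand) rose from 57.7 and 50.36 FPKM untreated to 75.48 and 85.64 FPKM with Dox. Both Dox libraries lay above both untreated ones, 1.49-fold in the means, with a log2 fold change of 0.57 (SE 0.0998, 95% interval 0.32 to 0.82, adjusted p = 0.0249 in limma). This call was the weaker one. It was lost without the filter on low values (adjusted p = 0.120 in limma) and when any of the 4 libraries was left out: untreated replicate 1 (0.0587), untreated replicate 2 (0.142), Dox replicate 1 (0.0738) or Dox replicate 2 (0.146).

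Igf2bp1 (ENSMUSG00000013415, chr11:95957163-96005940, minus strand) stood at 34.89 and 32.82 FPKM untreated and at 37.49 and 46.77 FPKM with Dox. Its Dox libraries were the most spread of the 8 genes relative to their mean, and the log2 fold change of 0.30 (95% interval 0.0093 to 0.59) did not pass (adjusted p = 0.198 in limma). It was 0.14 without Dox replicate 2, 0.46 without Dox replicate 1.

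Igf2bp3 (ENSMUSG00000029814, chr6:49085223-49214957, minus strand) had the opposite sign to its paralogs. It was at 66.4 and 61.21 FPKM untreated and at 51.19 and 53.55 FPKM with Dox, without overlap. The log2 fold change of -0.28 (95% interval -0.46 to -0.098) missed the threshold (adjusted p = 0.0809 in limma). The ratio of Igf2bp2 to Igf2bp3 within a library was 0.869 and 0.823 untreated and 1.47 and 1.60 with Dox. Igf2bp3 made up 41.8% and 42.4% of the summed FPKM of the 3 genes untreated and 31.2% and 28.8% with Dox. The share of Igf2bp2 was 36.3% and 34.9% untreated and 45.98% and 46.1% with Dox, while that of Igf2bp1 was 21.9% and 22.7% untreated and 22.8% and 25.2% with Dox. The summed level of the 3 genes was 158.99 and 144.39 FPKM untreated and 164.16 and 185.96 FPKM with Dox. The ratios and shares are given as a description and were not tested.

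**Figure D4:**
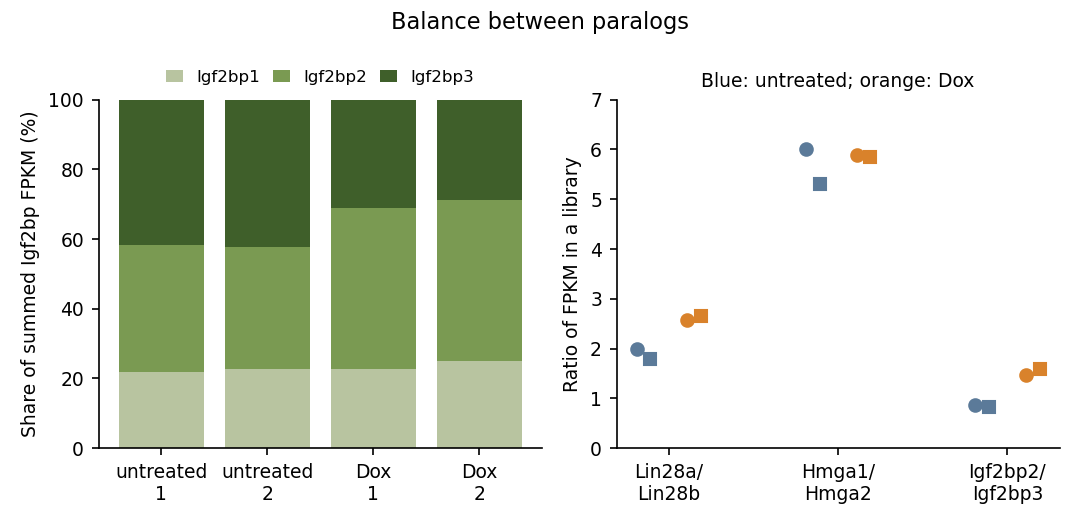
Left, share of Igf2bp1, Igf2bp2 and Igf2bp3 in their summed FPKM (percent) in each of the 4 libraries, from bottom to top. Right, ratios of paralogs within a library on a linear axis, with blue for untreated, orange for Dox, circles for replicate 1 and squares for replicate 2. The ratio of Igf2bp2 to Igf2bp3 lies at 0.823 and 0.869 untreated and at 1.47 and 1.60 with Dox, and that of Hmga1 to Hmga2 overlaps between groups.

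All 8 were higher in untreated replicate 1 than in untreated replicate 2, and all 8 were higher in Dox replicate 2 than in Dox replicate 1. Among all tested genes 51.6% were higher in the first pair and 55.5% in the second. When every library was rescaled to the same total (TPM scaling), these shares were 68.3% and 77.7%, and all 8 genes kept both orders. Replicates of a group thus differed in the same direction for all 8 genes. Exons of 6 of the 8 overlap another annotated gene, Lin28b and Igf2bp2 being the exceptions, and whether counting used strand is not given in the sources used here. The partner of Lin28a, Gm13061, was listed at 0 to 0.16 FPKM, and that of Trim71, C130032M10Rik, at 0.06 to 0.31 FPKM. The most abundant partner was Malsu1, on the strand opposite to Igf2bp3, at 17.14 to 22.48 FPKM, with 20.43 and 22.48 FPKM untreated and 20.2 and 17.14 FPKM with Dox.

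The genes most like the 2 called ones in pattern were picked by the smallest root mean square difference of centred log2 values over the 4 libraries, among 11397 named tested genes. Nearest to Lin28a were Rtl8b (difference 0.0113), Nfil3 (0.0260) and Peg10 (0.0295). Rtl8b was at 36.01 and 31.87 FPKM untreated and at 55.47 and 56.52 FPKM with Dox. Nearest to Igf2bp2 were Sorbs2 (0.00594), Bcor (0.00844) and Zswim5 (0.00864). With only 4 libraries and so many genes compared, close matches are easily found.

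The promoters of the 2 called genes are shown because both rose, as the 250 bases before the RefSeq start (GRCm38.p6, minus strand). They were searched on both strands for CACGTG (an E-box), GGGCGG (a GC box), CCAAT and TAATTA (a homeodomain core), with matches in capitals (a GC box on the other strand reads CCGCCC). The Igf2bp2 window (chr16:22163300-22163549) held 2 GC boxes and the Lin28a window (chr4:134018817-134019066) held none of the 4 motifs. Among 32851 promoter windows of this length 32.7% held a GC box, 6.02% the E-box, 33.8% CCAAT and 4.84% TAATTA. The GC content was 61.2% for Lin28a and 77.2% for Igf2bp2, against a median of 52.4% over all windows. Of the other genes, Trim71 and Hmga2 held 1 GC box each and Hmga1 held 3, while Lin28b and Igf2bp3 held 1 E-box and 1 CCAAT each. Igf2bp1 had no entry in the table.
Lin28a promoter: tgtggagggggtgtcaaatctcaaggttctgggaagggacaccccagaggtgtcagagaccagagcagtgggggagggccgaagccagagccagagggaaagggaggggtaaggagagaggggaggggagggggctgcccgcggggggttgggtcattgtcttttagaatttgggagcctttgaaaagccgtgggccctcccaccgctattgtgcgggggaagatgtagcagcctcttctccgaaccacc
Igf2bp2 promoter: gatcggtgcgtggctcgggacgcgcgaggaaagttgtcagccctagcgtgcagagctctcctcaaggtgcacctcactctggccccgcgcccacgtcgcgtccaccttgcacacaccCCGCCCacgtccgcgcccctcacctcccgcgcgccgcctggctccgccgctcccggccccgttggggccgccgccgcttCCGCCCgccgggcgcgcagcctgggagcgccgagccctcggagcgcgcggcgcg

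No tested gene of the machinery that makes and removes let-7 was called. Of 23 tested genes, 0 were higher and 0 lower in limma, where 9.31% of all tested genes were called, and at an unadjusted p below 0.05 1 was higher (Prkra) and 0 lower, where 12% and 11.9% of all tested genes were. Their median log2 fold change was 0.033. Single values ranged from -0.15 for Ago1 to 0.39 for Trim25, neither past the test (adjusted p = 0.382 and 0.231 in limma). Genes that were not called are not shown to be unchanged. Tut4 and Tut7, which add the uridine tail to let-7 precursors held by LIN28A, were at 31.99 and 28.83 FPKM and 19.36 and 18.21 FPKM untreated. With Dox they were at 30.47 and 36.8 FPKM and at 18.22 and 20.4 FPKM (log2 fold changes 0.14 and 0.04). Dis3l2, the nuclease that degrades the tailed precursors, was at 25.13 and 23.72 FPKM untreated and at 23.29 and 21.99 FPKM with Dox (log2 fold change -0.11). Adjusted p-values of these 3 genes in limma were 0.524, 0.849 and 0.469. Mature microRNAs are not measured by poly(A) sequencing, and the 11 Mirlet7 rows and Mir98 of the table were listed at 0 in all 4 libraries. Of the let-7 host transcripts, Huwe1 was at 49.99 to 54.2 FPKM untreated and 48.87 to 64.17 FPKM with Dox, while Mir99ahg and Mir100hg reached at most 3.05 FPKM.

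The other classical let-7 targets went both ways. Their list was chosen with earlier results of these data known. Of 37 tested, 3 were higher, 5 lower and 29 did not pass, where 4.44% of all tested genes were higher and 4.87% lower, with a median log2 fold change of -0.011. Without the filter on low values 2 were higher and 2 lower, and without untreated replicate 1 2 were higher and 3 lower. Among the lower genes, Igdcc3, which encodes an immunoglobulin superfamily receptor, fell from 205.28 and 177.84 FPKM to 37.34 and 39.17 FPKM (log2 fold change -2.29, adjusted p = 1.44e-04 in limma). Mycn, which drives proliferation of neural progenitors, fell from 36.9 and 33.33 FPKM to 15.44 and 14.28 FPKM (log2 fold change -1.19). Cdk6, a G1 kinase, fell from 7.54 and 7.2 to 1.84 and 3.2 FPKM (-1.28), a call lost without the filter and without either untreated library.

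Its relative Myc went the other way from Mycn. Myc rose from 2.86 and 2.77 FPKM to 14.45 and 18.35 FPKM (log2 fold change 2.18, adjusted p = 6.34e-04 in limma). Col1a2, a fibrillar collagen gene, rose from 2.46 and 1.93 FPKM to 12.21 and 12.02 FPKM (2.04), and Fignl2 from 33.04 and 30.23 FPKM to 48.8 and 58.51 FPKM (0.74). The call of Fignl2 was lost without the filter and without untreated replicate 1, untreated replicate 2 or Dox replicate 2. The seed match was present in the longest 3′ UTR of 27 of the 37 genes: 2 of the 3 higher, 1 of the 5 lower and 24 of the 29 that did not pass. Igdcc3 held 2 matches, and Mycn and Myc held 0. The cell type markers given above differ between the same libraries, and their part in these changes was not tested.

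**Figure D5:**
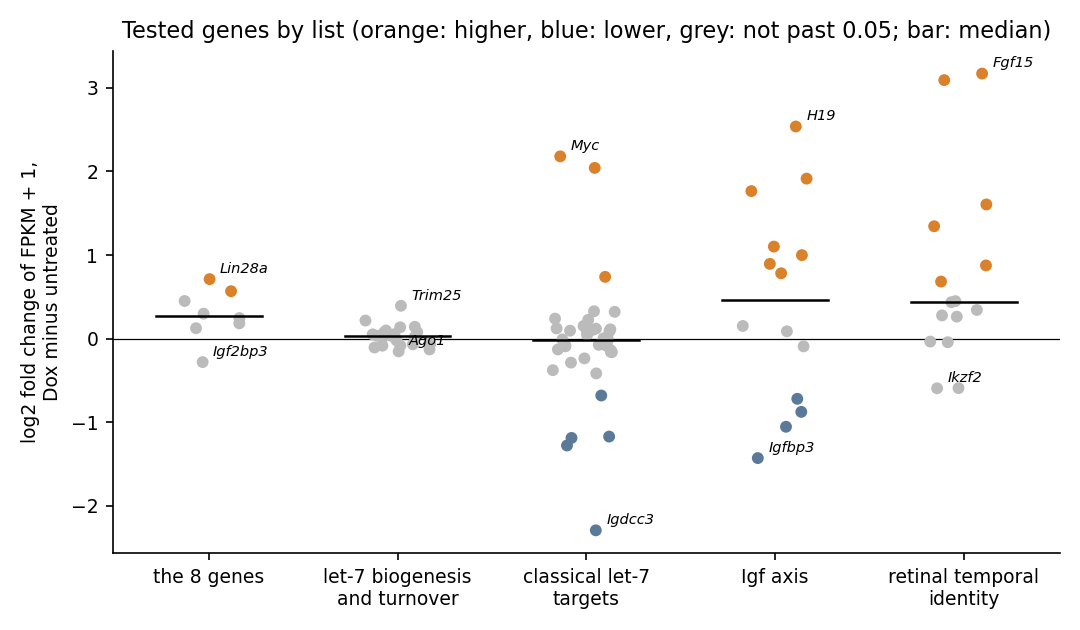
Log2 fold change (Dox minus untreated, on log2 of FPKM + 1) of each tested gene in the 8 heterochronic genes and in 4 related lists, with orange for genes called higher, blue for lower, grey for not past 0.05 and a bar at the median. The 8 genes span -0.28 to 0.71, while the Igf axis spans Igfbp3 (-1.43) to H19 (2.54) and the retinal temporal list reaches 3.17 for Fgf15.

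The Igf axis, which the IGF2BP proteins are named for, held called genes in both directions. Of 14 tested genes 7 were higher, 4 lower and 3 did not pass, where 9.31% of all tested genes were called, with a median log2 fold change of 0.47. The list was chosen with earlier results of these data known, so its share of called genes is not independent of the data. Igf2, the growth factor whose mRNA gave the IGF2BP family its name, fell from 20.26 and 16.61 FPKM to 10.92 and 8.34 FPKM (log2 fold change -0.87, adjusted p = 0.0253 in limma). This call was lost without the filter (adjusted p = 0.133 in limma) and without any of the 4 libraries: 0.132 and 0.0585 without untreated replicates 1 and 2, and 0.0557 and 0.127 without Dox replicates 1 and 2. H19, the noncoding RNA beside Igf2 that is expressed from the maternal allele, rose from 93.22 and 80.81 FPKM to 498.19 and 519.58 FPKM (2.54, adjusted p = 1.17e-04 in limma). The ratio of H19 to Igf2 was 4.60 and 4.87 untreated and 45.6 and 62.3 with Dox.

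Among the secreted binding proteins, Igfbp4 rose from 28.23 and 26.39 FPKM to 100.13 and 111.48 FPKM (log2 fold change 1.91), while Igfbp3 fell from 7.62 and 6.73 FPKM to 2.01 and 2.06 FPKM (-1.43). Igf2r, the receptor that clears IGF2, rose from 2.26 and 2.07 FPKM to 8.53 and 11.13 FPKM (1.76). The signalling receptors Igf1r and Insr, both classical let-7 targets as well, did not pass (log2 fold changes 0.09 and 0.15, adjusted p = 0.679 and 0.502 in limma). Irs1, an adaptor of these receptors, fell from 5.7 and 5.67 FPKM to 2.1 and 2.35 FPKM (-1.05). Igf1 and Ins2 were below the filter, with a highest value of 0.45 FPKM for Igf1 and 0 for Ins2.

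A list of genes tied to the timing of retinal progenitor fates was read beside them. Of 15 tested genes 6 were higher, 0 lower and 9 did not pass, where 4.44% of all tested genes were higher and 4.87% lower. This list, too, was chosen with earlier results of these data known. The median log2 fold change was 0.44. It was 0.24 with a pseudocount of 5, 0.26 without the filter and 0.66 with a filter of 5 FPKM. Fgf15, an early retinal progenitor gene, rose from 1.4 and 1.18 FPKM to 19.13 and 20.06 FPKM (3.17, adjusted p = 1.03e-04 in limma). Dct, a melanin synthesis gene that is also a pigment epithelium marker, rose from 0.09 and 0.14 FPKM to 8.43 and 8.58 FPKM. Sfrp2, a secreted Wnt inhibitor, rose from 75.79 and 67.8 FPKM to 198.61 and 244 FPKM (1.61). Also called higher were Hes1 (1.34), Sox9 (0.88) and Fgf11 (0.68), and Hes1 is in the retinal marker list too. The late-progenitor factors Nfia, Nfib and Nfix were below the filter in this comparison, at no more than 0.44 FPKM in any library. Nfic, of the same family and list, passed the filter, at 2.56 and 2.1 FPKM untreated and 2.99 and 3.07 FPKM with Dox. Its log2 fold change of 0.28 did not pass the test (adjusted p = 0.261 in limma). Casz1 stood at 5.26 and 4.72 FPKM untreated and 2.54 and 3.46 FPKM with Dox (log2 fold change -0.59, adjusted p = 0.0754 in limma). Ikzf2 was at 2.69 and 3.42 FPKM untreated and 1.39 and 2 FPKM with Dox (-0.59, adjusted p = 0.104 in limma). Other genes below the filter went both ways. Onecut1 was at 0.67 and 0.74 FPKM untreated and 0.1 and 0.2 FPKM with Dox. Rorb was at 0.07 and 0.09 FPKM untreated and 0.63 and 0.84 FPKM with Dox.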

How the data were processed

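The authors deposited FPKM values for 55426 rows, rounded to 2 decimals, with 1 column per library. The submitters' processing notes name STAR, Cuffdiff and mm10, without versions or settings, and the annotation release and use of strand are not given in the sources used here. Values were transformed to log2(FPKM + 1). Genes whose 4 libraries averaged 1 FPKM or more, 13931 in all, entered the fit in limma (version 3.58.1, under R 4.3.3; eBayes with an intensity trend, two-sided, Benjamini-Hochberg adjustment over all tested genes, threshold 0.05). Fold changes on this scale understate the change of low genes. On simulated data for this comparison, with 13931 genes and 200 changed, limma recovered 40% of log2 changes of 0.5 and 96% of log2 changes of 1. Unchanged genes made up 11.6% of the simulated calls, more than the threshold of 0.05 is meant to allow. The 200 changed genes are fewer than the 1297 called in the data, so these shares need not hold for the data. Depth was fitted from values below 0.5 FPKM in single-transcript genes of 450 to 1200 bases. In the 4 libraries 89.4% to 90.7% of these values came within 0.2 of a whole fragment, where 40% would by chance. Fragments per gene use the longest coding transcript of GENCODE M21 and are approximate. The 8 genes and all lists were chosen with earlier results of these data known. Named from each list were up to 3 called genes in each direction with the most extreme fold changes, plus Tut4, Tut7 and Dis3l2. Some further genes of the lists were named after their values were seen. These were host transcripts, receptors, Trim25, Ago1, Hes1, Sox9, Fgf11, Casz1, Ikzf2, Onecut1, Rorb, the Nfi genes and single marker genes. Marker lists are given by summed FPKM, with counts of called genes beside the sums. The epiblast list (3 tested, 1 higher and 2 lower), the surface epithelium list (4 tested, 0 called) and the mesendoderm list (0 of 8 tested, highest value 1.6 FPKM) are reported only here. Alternatives were pseudocounts of 0.1 and 5, no filter or a filter of 5 FPKM, TPM scaling, quantile normalization, no trend, a replicate block and each library left out.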

Additional observations from a re-analysis of the deposited data

How the results depend on the processing

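The sign of the log2 fold change of all 8 genes was kept in each of the 12 alternatives. Lin28a was called in all of them but 1, without Dox replicate 2. Igf2bp2 (log2 fold change 0.57) lost its call without a filter (adjusted p = 0.120 in limma). Leaving out each library in turn gave log2 fold changes of 0.63 to 0.80 for Lin28a and 0.47 to 0.66 for Igf2bp2, with adjusted p in limma of up to 0.0628 and 0.146. These 4 fits leave a lone library in a group, which is assumed to vary like the other group. They called 593 to 697 genes and 0 to 1 of the 8, against 1297 and 2. Without a filter 745 genes (27532 tested, 336 higher and 409 lower) and 1 of the 8 were called, and with a filter of 5 FPKM 821 genes (10342 tested). Of the classical let-7 targets 4 were called without a filter and 5 to 7 with a library left out, against 8. Of the 25 called genes in the lists, 10 lost the call in some alternative and 0 changed sign. The replicate block called 1134 genes and the same 2 of the 8 (adjusted p = 0.00803 for Lin28a and 0.0343 for Igf2bp2 in limma). Nothing shows that equal replicate numbers mark paired libraries: deviations of same-numbered libraries had a correlation across genes of -0.0435. TPM scaling shifted the median of all genes to 0.0165. Without the filter the Igf axis had a median of 0.11, and with 5 FPKM 0.78. A log2 change of 0.5 was recovered in 40% of simulated cases, a share that need not hold for the data, where more genes were called than were changed in the simulation. The 6 genes that did not pass are not shown to be unchanged.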

Other observations

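Genes were also grouped by the number of CTACCTC matches in their longest annotated 3′ UTR, a grouping chosen after the values above were seen. Of the 11558 tested genes with such a UTR, 10335 held 0 matches and had a median log2 fold change of 0.0070, with 5.05% called higher and 5.16% lower. The 1070 genes with 1 match had a median of 0.014, with 5.14% higher and 5.61% lower. The 143 genes with 2 or 3 matches had a median of 0.026, with 5 genes higher and 6 lower. With Lin28a, Lin28b, Trim71, Hmga2 and Igf2bp1 left out, the 148 genes with at least 2 matches had a median of 0.019, with 4 higher and 6 lower.

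The 12 genes with at least 4 matches include Nr6a1, a germ cell nuclear factor with 8 matches, and Trim6 with 6. Nr6a1 stood at 38.36 and 33.63 FPKM untreated and at 28.36 and 26.57 FPKM with Dox, without overlap (log2 fold change -0.38, adjusted p = 0.0650 in limma). Hic2, with 4 matches, stood at 13.9 and 13.1 FPKM untreated and 13.62 and 15.79 FPKM with Dox. Of the 12 genes 10 were tested, Lin28b, Trim71, Hmga2 and Igf2bp1 among them. Of these 10, 0 were called at an adjusted p below 0.05 in limma, where 9.31% of all tested genes were called. With so few genes this count cannot be told apart from that share. Zbtb37 had the most negative value among them (log2 fold change -0.59) and Trim71 the most positive (0.45). These genes were named after their values were seen.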
